A study of Homo sapiens with 2 samples.

Results

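Long intergenic noncoding RNA genes carry symbols made of LINC and a number until a function gives them a name. The genes described here are those whose symbol is exactly LINC plus digits and whose level, in RPKM (reads scaled to gene length and library size), averaged at least 0.5 over both libraries. Of 966 such symbols in the table, 153 met this rule, 539 were listed at 0 in both libraries and 274 were detected below it. Members were thus chosen by their mean RPKM and not by the difference between the libraries, so their level is a description and no finding. A gene near 0 in 1 library could still pass only through the other, as LINC01322 did through MYOCD and LINC00444 through WT. Counts of called members therefore depend in part on the rule. Around the limit of 0.5, the members just inside it were LINC01347 (mean 0.506 RPKM), LINC01315 (0.509) and LINC01545 (0.532), and the genes just outside it were LINC00475 (0.491), LINC00665 (0.490) and LINC01427 (0.483).

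The study compared A549 cells overexpressing MYOCD with A549 cells labelled wild type (WT) that had no treatment, 1 library each. A549 is a cell line derived from a human lung adenocarcinoma, and the product of MYOCD, myocardin, binds SRF and drives the genes of smooth and heart muscle. No label says how MYOCD was delivered, whether the cells are 1 clone or how long they were kept. With 1 culture in each group there is no replicate error and no p-value, and a gene is called higher or lower here when log2((MYOCD RPKM + 0.5)/(WT RPKM + 0.5)) reached 1 in either direction, a rule of size. This log2 change understates the change of low genes. MYOCD itself stood at 48.6 RPKM in the MYOCD library and 0.304 in the WT library, in the direction of the labels. Of 5 epithelial genes listed, KRT8 (1059 RPKM in MYOCD, 1523 in WT), KRT18 and CDH1 were high in both libraries, whereas KRT19 (3.24 in MYOCD, 2.94 in WT) and EPCAM (2.57 and 0.889, itself past 2-fold) were low, and 0 of 11 blood, endothelial and fibroblast markers reached a mean of 0.5 RPKM. The deposited values summed to 880876 RPKM in MYOCD and 886700 in WT, and the read depth is unknown.

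Long intergenic noncoding RNAs are transcripts made between protein-coding genes, usually spliced and polyadenylated like messenger RNA. Most are scarce, and many are restricted to few cell types. Some act at the place where they are made, on a neighbouring gene, some act elsewhere as scaffolds or decoys for proteins and microRNAs, and some symbols of this class were later found to be messenger RNAs of very small proteins. In lung tumours they have been studied mainly as RNAs whose level goes with growth, invasion or epithelial-mesenchymal transition.

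Past this filter the LINC genes were low and leaned towards lower values in MYOCD. Their median level was 2.11 RPKM in MYOCD and 2.01 in WT, against 7.16 and 7.26 RPKM over all 19042 symbols past the same filter. By 2-fold or more, 5 of the 153 were higher in MYOCD (3.27%, where 5.02% of all genes were) and 15 were lower (9.80%, where 5.9% of all genes were). Below 0 on the log2 scale lay 92 members and above it 61, with a median of -0.16 and quartiles of -0.50 and 0.29, while the median of all genes was -0.00 with quartiles of -0.30 and 0.26. With a pseudocount of 0.1 RPKM 10 members were higher (6.54%, where 6.88% of all genes were) and 22 lower (14.4%, where 8.29% were). Among the 114 members with no shared exon on their strand, short transcript or small RNA inside, 3 were higher (2.63%) and 11 lower (9.65%). With no filter on low values 7 of 427 LINC symbols were higher (1.64%, against 4.04% of all genes). Under that setting 18 were lower (4.22%, against 4.78%), so the excess of lower members was seen only with a filter. Of the 427, 274 had a mean under 0.5 RPKM, where the pseudocount shrinks the log2 change most, and these shares were not matched by level. Within 1.5-fold of WT stayed 64.1% of members and 75.9% of all genes, which were also not matched by level.

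Low genes are called more often, so the shares were also set side by side by level. At a mean of 0.5 to 1 RPKM, 1 of 42 members was higher (2.38%, against 8.15% of all genes at that level) and 7 were lower (16.7%, against 9.95%), or 19.05% in either direction against 18.1%. From 1 to 10 RPKM, 4 of 90 were higher (4.44%, against 6.1%) and 7 were lower (7.78%, against 7.02%), or 12.2% against 13.1%. At 10 RPKM or more, 0 of 21 were higher (against 2.97%) and 1 was lower (4.76%, against 3.52%), or 4.76% against 6.5%. The share past 2-fold in either direction thus lay near that of all genes at each level, against 10.9% over all levels, and how often members passed 2-fold is no result about them. The median log2 change of members was below that of all genes in each range, at -0.12 against -0.03, -0.17 against -0.01 and -0.24 against 0.00.

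**Figure D1:**
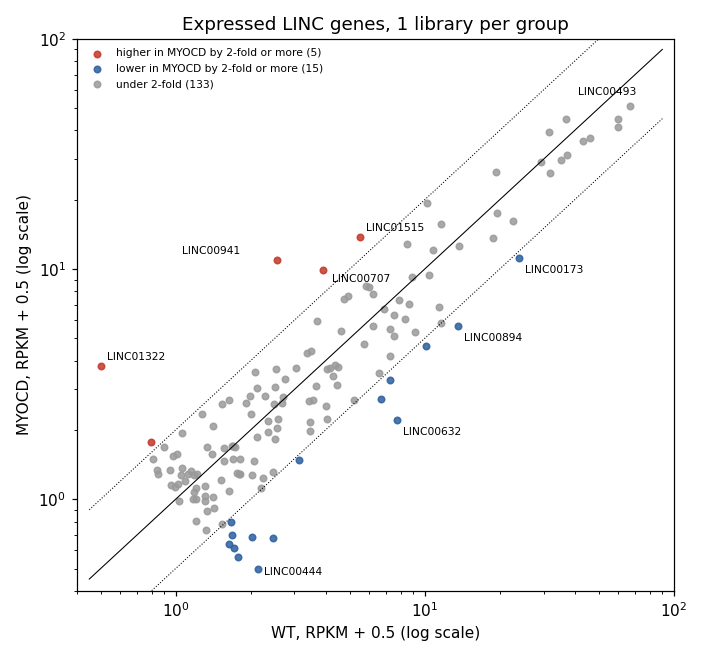
Each point is 1 of the 153 LINC genes, with RPKM + 0.5 in MYOCD on the vertical axis and in WT on the horizontal axis, both on log scales. The solid line marks equal values and the dotted lines 2-fold. The 5 higher genes lie above the upper dotted line and the 15 lower genes below the lower one, 8 of the 20 at a mean under 1 RPKM.

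The median log2 change of other noncoding classes lay nearer to 0. Genes with antisense symbols (463 past the filter) had a median log2 change of -0.03, with 4.75% higher and 6.91% lower by 2-fold or more. The 900 genes that GENCODE release 29 types as lincRNA but that carry no LINC number had a median of 0.03, with 7% higher and 7.44% lower. Small RNA host genes (SNHG and MIR...HG symbols, 44) had a median of -0.01, and clone-named genes (3310) one of -0.00, with 8.16% higher and 9% lower, against 3.27% and 9.80% of the LINC genes. Protein-coding genes (12900) had a median of 0.00, with 2.95% higher and 3.04% lower. Of 25 widely studied long noncoding RNAs with other names, described further on, 19 lay below 0, with a median of -0.11. These are descriptions of 1 pair of libraries, and the differences between classes were not tested.

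**Figure D2:**
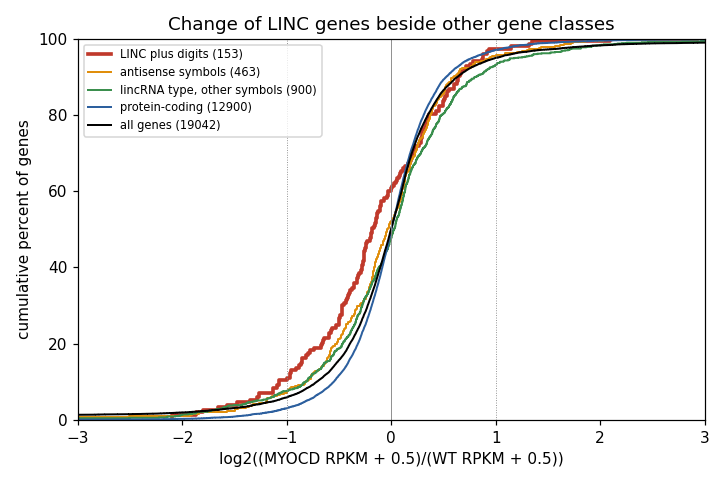
Cumulative percent of genes (vertical axis) at or below each log2 change between MYOCD and WT (horizontal axis), for the LINC genes and 4 other gene sets past the same filter. The LINC curve runs left of the others below 0, where it reaches 60.1% of its members against 50.3% of all genes, and joins them above 0.

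Among the genes that were higher in MYOCD, LINC00941 and LINC00707 are RNAs studied in carcinoma for growth and invasion, the first also for TGF-beta signalling in colorectal cancer. LINC00941 had 10.4 RPKM in MYOCD and 2.05 in WT, a ratio of 5.07 between the deposited values and a log2 change of 2.10. LINC00707, on chromosome 10 from 6779549 to 6879450, had 9.44 RPKM in MYOCD and 3.40 in WT, a ratio of 2.78. Neither was near 0 in either library, but the pseudocount moved both values. With a pseudocount of 1 RPKM the log2 changes were 1.90 for LINC00941 and 1.25 for LINC00707, both still past 2-fold. LINC01515, on chromosome 10 from 65570338 to 65768835, had 13.2 RPKM in MYOCD and 4.98 in WT, a ratio of 2.65, and was the most abundant of the 5 in both libraries.

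LINC01322, on chromosome 3 from 165206960 to 165655423, was read in MYOCD alone, at 3.30 RPKM, and was listed at 0 in WT, so no fold is given. LINC01297 had 1.27 RPKM in MYOCD and 0.297 in WT. It was the 1 higher member with a mean under 1 RPKM, and with a pseudocount of 1 RPKM its log2 change was 0.81. LINC01297 lies on chromosome 22, where 462 other genes past the filter had a median log2 change of 0.27 and 23.6% lay below 0. The part of that shift in its value was not tested. LINC00941 shares all 1355 of its exonic bases, and LINC00707 1631 of its 9833, with other GENCODE 29 models on the same strand, and no label or header says how such reads were assigned. Of the 2 models that overlap LINC00941 in this way 1 is a row of the table, RP11-77I22.2, at 0 RPKM in both libraries, and of the 3 that overlap LINC00707 the number is 0.

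**Figure D3:**
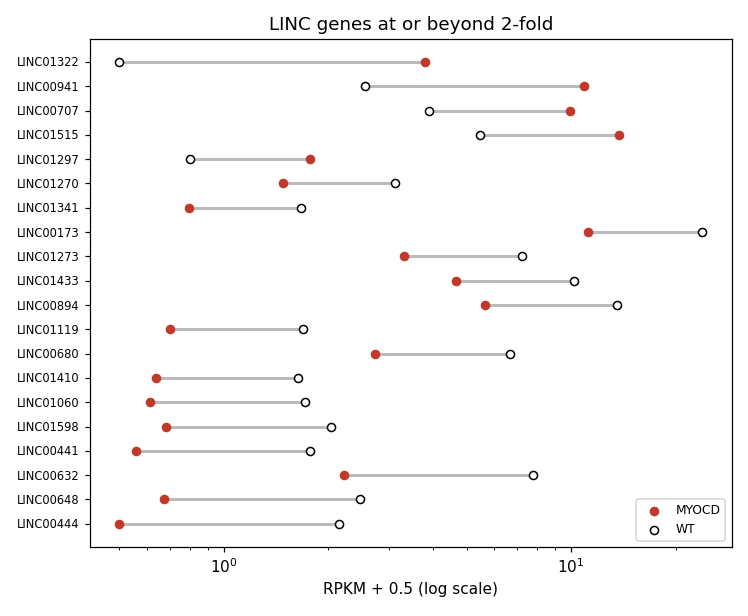
RPKM + 0.5 on a log scale (horizontal axis) in MYOCD (filled) and WT (open) for the 20 LINC genes at or beyond 2-fold, ordered by log2 change, largest at the top. LINC01322 at the top is listed at 0 in WT and LINC00444 at the bottom at 0 in MYOCD. Of the 20, LINC00173 has the highest value in WT and LINC01515 the highest in MYOCD.

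Of the 15 genes lower in MYOCD, 6 reached at least 5 RPKM in the higher library. LINC00173, studied in lung cancer, on chromosome 12 from 116533422 to 116536518, was the most abundant, with 10.7 RPKM in MYOCD and 23.4 in WT. It was also the 1 called gene among the 21 members at a mean of 10 RPKM or more. LINC00894 had 5.16 RPKM in MYOCD and 13.1 in WT. Its current symbol, EOLA2-DT, marks it as a divergent transcript of EOLA2, listed in the table as CXorf40B, which itself stood at 8.81 and 8.98 RPKM. LINC00893 (current symbol EOLA1-DT), the corresponding transcript of the related gene EOLA1, had 4.81 RPKM in MYOCD and 8.64 in WT, a log2 change of -0.78. Reads common to such near copies could have been split between them.

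LINC00632 had 1.72 RPKM in MYOCD and 7.25 in WT, a ratio of 4.22 of WT to MYOCD and the largest fall among members above 5 RPKM in WT. It lies on chromosome X from 140709562 to 140793215, and its primary transcript is known as the source of the circular RNA CDR1as, which carries many binding sites for the microRNA miR-7. The table lists CDR1-AS under its own identifier, at 2.57 RPKM in MYOCD and 4.95 in WT (log2 change -0.83), the same direction under 2-fold, and the protein-coding gene CDR1 on the other strand at 0.107 and 0.347. These values do not separate circular from linear RNA, and without strand information reads of the overlapping models cannot be told apart. LINC00680, annotated as a transcribed pseudogene, had 2.23 RPKM in MYOCD and 6.15 in WT.

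The lower genes below 5 RPKM were less certain in size. LINC00444, for which GENCODE 29 held no entry, was listed at 0 in MYOCD and 1.65 RPKM in WT. LINC00648 had 0.176 RPKM in MYOCD and 1.97 in WT, and LINC00441 had 0.0610 and 1.28. LINC01598 (0.184 RPKM in MYOCD, 1.53 in WT) shares 179 exonic bases with SMUG1 on the same strand. LINC01060 (0.115 and 1.21), LINC01410 (0.140 and 1.13), LINC01119 (0.202 and 1.19) and LINC01341 (0.296 and 1.17) all had means under 1 RPKM, and with a pseudocount of 1 RPKM all 4 lay under 2-fold. LINC00106 (5.33 RPKM in MYOCD, 11.2 in WT) missed the limit narrowly, at a log2 change of -0.9999, and the ratio of its WT to its MYOCD value was 2.09.

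Chromosome 20 held 3 of the 15 lower genes among its 7 members, where 6.35% of its 488 other genes past the filter were lower. LINC01273 had 2.80 RPKM in MYOCD and 6.72 in WT, and LINC01270, which lies 116048 bases further along, had 0.984 and 2.62, which with a pseudocount of 1 RPKM lay under 2-fold. The nearest protein-coding gene of both is CEBPB, the gene of a transcription factor of the C/EBP family, which stood at 72.2 RPKM in MYOCD and 62.1 in WT. LINC01433 had 4.15 RPKM in MYOCD and 9.66 in WT, its neighbour SMOX standing at 105.9 and 102.7. The remaining chromosome 20 members, LINC01431 (0.811 RPKM in MYOCD, 1.96 in WT), LINC00493, LINC01271 and LINC00261, lay under 2-fold and also below 0, so that 7 of 7 had a negative log2 change and their median was -0.91. Its other genes had a median of -0.02, with 53.1% below 0. LINC01270 and LINC01271 share 1333 exonic bases on opposite strands, so their values may not be separate. This chromosome was picked after its values were seen.

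The starts of 7 called genes are printed as RefSeq windows of 250 bases before and 50 after the annotated start, 5′ to 3′. Among called genes with a window, LINC01322 and LINC00941 had the largest rises by the log2 change used here and LINC00632 the largest fall. LINC00173 had the highest mean RPKM of these. With a pseudocount of 0.1 RPKM, LINC00441 (-3.09) and LINC01060 (-2.60), among others, fell further than LINC00632 (-2.02). LINC00441 lies beside RB1, and LINC01273 and LINC01270 are the neighbours of CEBPB. These 7 genes were picked after their values were seen, and not all by size of change, since LINC00173, LINC01273 and LINC01270 are among the smaller falls. Capitals mark matches on either strand to 4 motifs that were searched: the CArG box, which SRF binds, CATTCC, bound by TEAD factors, TGACTCA, bound by AP-1, and TGACNNNGC, the core of the antioxidant response element. The first pair belongs to genes higher in MYOCD and the other 5 to lower ones.
LINC01322 (GRCh38.p14, chr3:165206698-165206997, plus strand): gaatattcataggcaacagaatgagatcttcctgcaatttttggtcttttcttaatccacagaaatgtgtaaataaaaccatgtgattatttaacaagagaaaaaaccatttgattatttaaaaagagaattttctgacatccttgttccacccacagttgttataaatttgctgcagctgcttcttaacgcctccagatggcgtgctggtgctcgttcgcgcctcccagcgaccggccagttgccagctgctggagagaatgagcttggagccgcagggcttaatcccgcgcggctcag
LINC00941 (GRCh38.p14, chr12:30795431-30795730, plus strand): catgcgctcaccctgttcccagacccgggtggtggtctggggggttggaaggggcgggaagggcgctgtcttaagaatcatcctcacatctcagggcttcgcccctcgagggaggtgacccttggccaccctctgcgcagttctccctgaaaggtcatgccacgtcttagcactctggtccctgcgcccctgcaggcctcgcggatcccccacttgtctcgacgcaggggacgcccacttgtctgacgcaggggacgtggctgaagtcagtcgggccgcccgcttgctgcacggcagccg
LINC00632 (GRCh38.p14, chrX:140709509-140709808, plus strand): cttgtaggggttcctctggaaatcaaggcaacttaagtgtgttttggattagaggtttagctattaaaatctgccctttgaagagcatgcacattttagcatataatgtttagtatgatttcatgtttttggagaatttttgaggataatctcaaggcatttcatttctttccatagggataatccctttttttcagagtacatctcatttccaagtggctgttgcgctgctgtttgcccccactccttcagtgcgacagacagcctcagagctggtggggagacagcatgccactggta
LINC00173 (GRCh38.p14, chr12:116533172-116533471, plus strand): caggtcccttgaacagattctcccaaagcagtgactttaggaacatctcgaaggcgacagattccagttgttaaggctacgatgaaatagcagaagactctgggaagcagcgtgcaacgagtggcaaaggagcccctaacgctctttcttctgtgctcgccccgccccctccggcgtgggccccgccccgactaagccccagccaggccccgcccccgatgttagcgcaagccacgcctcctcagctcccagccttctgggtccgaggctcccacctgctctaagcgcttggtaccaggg
LINC00441 (GRCh38.p14, chr13:48303653-48303952, minus strand): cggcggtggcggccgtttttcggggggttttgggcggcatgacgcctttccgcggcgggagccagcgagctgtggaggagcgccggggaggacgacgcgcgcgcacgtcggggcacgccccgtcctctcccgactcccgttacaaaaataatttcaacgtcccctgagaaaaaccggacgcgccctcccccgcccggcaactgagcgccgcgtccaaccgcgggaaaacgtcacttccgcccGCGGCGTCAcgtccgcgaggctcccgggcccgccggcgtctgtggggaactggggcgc
LINC01273 (GRCh38.p14, chr20:50172320-50172619, plus strand): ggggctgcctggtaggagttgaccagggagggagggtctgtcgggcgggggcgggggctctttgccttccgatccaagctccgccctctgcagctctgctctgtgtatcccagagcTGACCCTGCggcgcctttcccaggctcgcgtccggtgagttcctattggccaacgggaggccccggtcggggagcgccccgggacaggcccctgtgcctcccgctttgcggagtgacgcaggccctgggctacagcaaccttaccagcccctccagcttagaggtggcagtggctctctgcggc
LINC01270 (GRCh38.p14, chr20:50292470-50292769, plus strand): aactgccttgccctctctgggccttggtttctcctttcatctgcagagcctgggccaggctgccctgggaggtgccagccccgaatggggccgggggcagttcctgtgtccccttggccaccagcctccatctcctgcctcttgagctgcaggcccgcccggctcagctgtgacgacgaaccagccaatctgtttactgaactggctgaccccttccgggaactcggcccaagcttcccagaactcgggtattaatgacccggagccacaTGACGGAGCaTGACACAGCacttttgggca

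None of the motifs was found in the LINC01322, LINC00941, LINC00632 and LINC00173 windows. TGACNNNGC was found in those of LINC00441, LINC01273 and LINC01270, with 2 matches side by side in the last, and the 3 windows of lower members that hold it are all among those printed. Of the 112 members with a RefSeq window, 17 held TGACNNNGC (15.2%, against 13.6% of all 27305 windows), 13 CATTCC (11.6%, against 14.0%), 9 TGACTCA (8.04%, against 4.92%) and 1 the CArG box (0.893%, against 1.29%). Among called members the numbers were small, with TGACNNNGC in 3 of 11 lower and 0 of 3 higher windows and the CArG box in 0 of 11 and 0 of 3. The 1 CArG box was in the window of LINC00973, which had 18.9 RPKM in MYOCD and 9.68 in WT, a ratio of 1.95. That window starts from a RefSeq start 66492 bases from the GENCODE 29 start of the gene, as does that of LINC00941 by 40514 bases. In all, 83 of 110 members had both starts within 1000 bases. Of these 83, 0 held a CArG box, 4 TGACTCA, 9 CATTCC and 14 TGACNNNGC. The TGACTCA share among them thus lay near that of all windows. A match is a description of letters and says nothing about binding.

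Several members begin head to head with a protein-coding gene, an arrangement in which both can share a promoter region. In GENCODE 29 this held for 15 members whose nearest protein-coding gene starts within 2000 bases on the opposite strand and does not overlap them. Members that overlap such a gene at their starts were left out of these pairs. LINC00894 was among those left out, as it overlaps CXorf40B and starts 183 bases from its start. LINC00941, on chromosome 12 from 30755167 to 30802602, starts 216 bases from CAPRIN2, which encodes an RNA-binding protein of the caprin family, and CAPRIN2 stood at 28.2 RPKM in MYOCD and 10.3 in WT. This was the 1 divergent pair in which both genes were called, each higher in MYOCD, with log2 changes of 2.10 and 1.40. The pairing rests on the GENCODE 29 model, since the RefSeq gene of that name starts further downstream and RP11-77I22.2, which starts on the same side of CAPRIN2, was listed at 0.

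Of the other 14 divergent pairs, 8 had the same sign and in 0 were both genes called. LINC00441, whose current symbol RB1-DT names it after the tumour suppressor gene RB1, starts 65 bases from RB1. RB1 stood at 19.1 RPKM in MYOCD and 15.1 in WT, while LINC00441 was lower in MYOCD. LINC01184 had 17.0 RPKM in MYOCD and 19.04 in WT, while SLC12A2, the ion cotransporter gene that starts 594 bases away, stood at 19.99 and 59.1. LINC01137 (5.55 RPKM in MYOCD, 7.87 in WT) and ZC3H12A (6.16 and 11.6), which encodes a ribonuclease of inflammatory transcripts, were both below 0 and under 2-fold. Over all 15 pairs Spearman's rho between the log2 changes was 0.01.

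**Figure D4:**
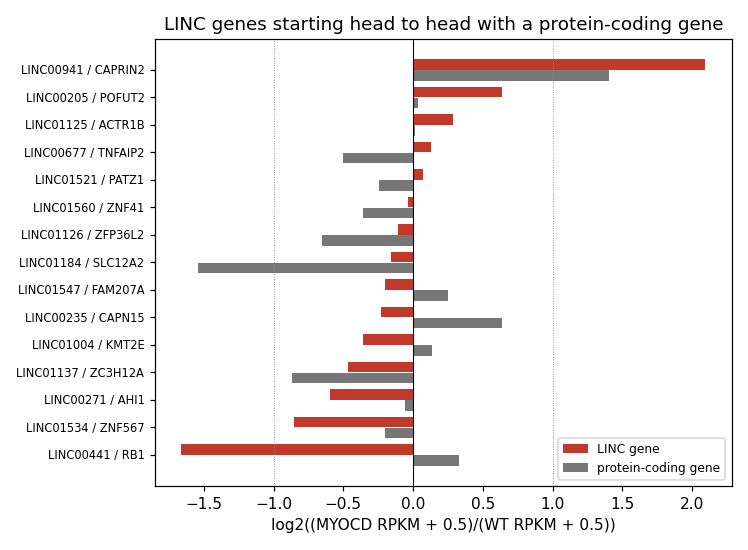
Log2 change between MYOCD and WT (horizontal axis) for the 15 LINC genes that start head to head with a protein-coding gene without overlapping it. The upper bar of each pair is the LINC gene and the lower bar the protein-coding gene, with dotted lines at 2-fold. The LINC00941 and CAPRIN2 bars both pass 1, whereas for LINC00441 and RB1 they point opposite ways.

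Across all 149 members with a position in GENCODE 29, the nearest protein-coding gene past the filter overlapped the member in 32 cases and lay within 10000 bases in 75. The log2 changes of member and neighbour had a Spearman's rho of 0.12 over all 149 and 0.26 over the 84 members that shared no exonic base with any gene, both values coming from the same libraries. Of the 149 neighbours 7 were called, and 5.98% of all protein-coding genes past the filter were. Of the called members, 2 had a neighbour called in the same direction and 0 in the opposite one, too few to read as a result. Beside LINC00941 this was LINC01060, whose neighbour TRIML2, 291133 bases away, stood at 11.3 RPKM in MYOCD and 31.4 in WT. Members within 200000 bases of one another formed 8 pairs, of which 7 had the same sign. These pairs are not independent, since LINC01273, LINC01270 and LINC01271 each enter more than 1 of them. On opposite strands LINC01270 and LINC01271 share 1333 exonic bases and LINC01128 and LINC00115 share 92. In another pair, LINC01117 had 1.18 RPKM in MYOCD and 0.394 in WT beside LINC01116 at 2.59 and 2.01, and these models share 222 exonic bases on opposite strands.

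The 10 most abundant members stayed under 2-fold. The 10 with the highest means lay between 28.8 and 58.3 RPKM on average and held 43.0% of the summed RPKM of all members in MYOCD and 44.6% in WT. Of these 10, 8 were below 0 and 2 above, with log2 changes from -0.53 to 0.33. Thus 0 were called, where 6.5% of all genes at a mean of 10 RPKM or more were. LINC00674 had 40.8 RPKM in MYOCD and 59.2 in WT, and LINC01002 had 35.3 and 42.8. LINC01578, now CHASERR, which in mouse restrains its neighbour Chd2, had 36.5 RPKM in MYOCD and 45.8 in WT. CHD2 itself stood at 48.0 and 37.0, so this pair lay on opposite sides of 0 and both under 2-fold. LINC00969 (44.5 RPKM in MYOCD, 36.3 in WT), which shares 4237 exonic bases with genes such as MUC20, and LINC00511 (39.0 and 31.0) were the 2 above 0.

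**Figure D5:**
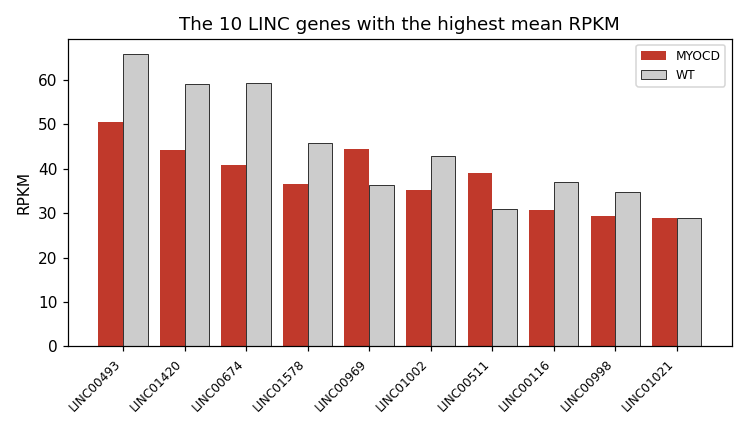
RPKM (vertical axis) in MYOCD (left bar) and WT (right bar) of the 10 LINC genes with the highest mean. The MYOCD bar is the shorter one for 8 of the 10, clearly so for LINC00493, LINC01420 and LINC00674, and the pair is nearly level for LINC01021.

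Several of the abundant members are messenger RNAs of small proteins. Of the 8 symbols listed for this class 5 are in the table and 4 are members, all of type protein-coding in GENCODE 29. LINC00493, now SMIM26, which encodes a mitochondrial small protein, had 50.6 RPKM in MYOCD and 66.0 in WT. LINC01420, now NBDY, whose product binds the mRNA decapping complex, had 44.2 RPKM in MYOCD and 59.1 in WT. LINC00116, now MTLN, which encodes the mitochondrial protein mitoregulin, had 30.8 RPKM in MYOCD and 36.9 in WT, and LINC00998, now SMIM30, had 29.4 and 34.8. All 4 were below 0 and under 2-fold, with a median log2 change of -0.32. The 5th, LINC00961, known for a polypeptide that restrains mTORC1 signalling, stood at 0 and 0.117 RPKM and is no member.

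LINC genes with a described role gave 16 members of 20 in the table, of which 2 were higher (LINC00941 and LINC00707), 0 were lower and 11 were below 0. Of all genes 5.02% were higher and 5.9% lower, and with so few genes these counts are no result about the list. LINC01021, now PURPL, a p53-induced RNA that limits p53 levels, had 28.8 RPKM in MYOCD and 28.9 in WT, the closest match of an abundant member between the libraries. LINC00473, a CREB-induced RNA studied in lung tumours that lack the kinase LKB1, which A549 cells lack, had 15.6 RPKM in MYOCD and 22.1 in WT. LINC00261, which lies beside the endoderm factor gene FOXA2, stood low at 0.578 and 0.686. It shares 4779 of its 5552 exonic bases with another GENCODE 29 model on the same strand, and how such reads were assigned is unknown. LINC00662 had 26.0 RPKM in MYOCD and 18.8 in WT, LINC01116 and LINC00511 also lay above 0, and all 3 were under 2-fold.

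The rest of this group lay below 0 and under 2-fold. LINC00963 had 25.7 RPKM in MYOCD and 31.2 in WT, and LINC01234 had 13.1 and 18.4. LINC00857 (6.55 RPKM in MYOCD, 8.14 in WT), LINC01089 (4.98 and 6.75), LINC00467 (4.61 and 7.06) and LINC00342 (3.17 and 3.57) followed in level. LINC01503 had 1.33 RPKM in MYOCD and 2.003 in WT. LINC00472, which holds the microRNA genes MIR30A and MIR30C2, had 2.60 RPKM in MYOCD and 3.16 in WT.

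Widely studied long noncoding RNAs outside the LINC symbols were set beside them. Of 30 listed, 25 passed the same filter, 2 were higher, 1 was lower, 19 lay below 0 and the median log2 change was -0.11. Of all genes 5.02% were higher and 5.9% lower, so the called counts are no result about this list. MIR31HG (5.79 RPKM in MYOCD, 1.43 in WT) and the imprinted gene MEG3 (38.7 and 18.5) were higher, and EPB41L4A-AS1 (7.63 and 18.03) was lower. CYTOR, which once carried a LINC symbol, had 36.8 RPKM in MYOCD and 63.5 in WT, and NORAD, an RNA that binds Pumilio proteins, had 87.6 and 110.8. The nuclear RNAs MALAT1 (1996 RPKM in MYOCD, 2077 in WT) and NEAT1 (479 and 477) were far more abundant than the highest member and nearly level.

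By their annotation the members are a mixed class. GENCODE 29 types 97 of the 149 as lincRNA, 18 as antisense, 14 as processed transcripts, 9 as protein-coding and 8 as transcribed pseudogenes. All 5 higher members were of type lincRNA, as were 8 of the 15 lower ones, with a median log2 change of -0.16 over the 97. The median exonic length was 3038 nt, 15 members had a single exon, and 65 shared exonic bases with another gene on either strand. Across members the size of the log2 change, sign aside, had a Spearman's rho of -0.13 with exonic length and -0.02 with mean RPKM.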

How the data were processed

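RNA of 1 MYOCD-overexpressing and 1 WT culture of A549 cells was sequenced on an Illumina HiSeq from TruSeq libraries, per the labels' protocols. The values are RPKM as the authors deposited them, per the file headers, where a key assigns each column to MYOCD or WT. The submitters' processing notes list Bowtie 0.12.2, the mouse build mm8 and GRCh38.p12, with no role for any of them. No source used here names the counting tool or its annotation, or says whether strand was used. To see whether single reads could be recovered, low values of 1-transcript models from 1500 nt upwards were compared with multiples of one fitted step. Within 0.1 of a whole multiple lay 26.2% in MYOCD and 18.1% in WT, and chance alone puts 20% there. Reads could not be recovered, so depth is unknown and no counting interval or count test was used.

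The 57979 gene rows were reduced to 1 per symbol (56255) by highest mean RPKM, which touched 4 members. Log2 changes used a pseudocount of 0.5 RPKM. Positions and types came from GENCODE 29 on GRCh38, which held 149 of 153 member identifiers, and start windows from RefSeq on GRCh38.p14, matched by symbol, current symbol or Ensembl identifier. Python 3.11.15, pandas 2.3.3 and scipy 1.17.1 were used, and the calling step was tested on simulated data. The rule for named genes took all members at or beyond 2-fold, the 10 most abundant, 3 on each side of the limit, and all members of the lists. LINC00106, LINC00893, LINC00973, LINC01117, LINC01137, LINC01184, LINC01431, LINC01271 and the neighbouring genes were named after their values were seen. The members and lists were chosen with earlier results of these data known. Alternatives were the pseudocount, the filter, 2 scalings, members without shared exons and summed rows.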

Additional observations from a re-analysis of the deposited data

How the results depend on the processing

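With 1 library in each group and no count depth, all results describe a single pair of cultures. The number of higher members was 5 as reported, 10 with a pseudocount of 0.1 RPKM and 3 of the 114 members with no same-strand shared exon, short transcript or small RNA inside. It ranged from 4 to 7 under the other alternatives, and under each setting the share of members that were higher lay below that of all genes. For the 114 members all genes were not restricted in the same way, here and for the lower members. The number of lower members was 15 as reported, 8 of 111 with a mean of at least 1 RPKM (7.21%, against 5.21% of all genes), and 10 to 22 under the other alternatives. With no filter 18 of 427 were lower (4.22%, against 4.78%), the 1 setting in which that share lay below that of all genes, and with a pseudocount of 1 RPKM 10 were (6.54%, against 4.41%). The median log2 change was -0.16 as reported and -0.054 over the 427 LINC symbols detected with no filter, where 274 lie below the limit of 0.5 RPKM. It stayed between -0.21 and -0.14 under the others. Both scalings shifted all log2 changes by 0.01 or less in size. Of 172 values of 43 named members, 164 kept their side of the 2-fold limit, 6 fell under it, all with a pseudocount of 1 RPKM, 2 passed it (LINC00106), and 0 changed sign past it. No paired analysis was possible because each group has 1 library.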

Other observations

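Genes on chromosome 22 stood apart from the rest of the table. The 462 genes there past the filter, LINC genes left out, had a median log2 change of 0.27 and 23.6% of them lay below 0, whereas the medians of the other chromosomes that hold a member ran from -0.11 (chromosome 9, 740 genes) to 0.04 (chromosome 21, 202 genes). The 5 LINC genes on chromosome 22 had a median of 0.07, with 3 above 0 and LINC01297 the 1 past 2-fold, where 9.52% of the other genes there were past it. Chromosome 9 held 7 LINC genes with a median of -0.28, and chromosome 21 held 5 with a median of 0.64.

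Chromosome X held 12 members, of which 10 lay below 0, among them LINC00632 and LINC00894, with a median of -0.42. The 542 other genes of chromosome X past the filter had a median of -0.01, with 50.6% below 0. LINC00893 is also among the 10, and its reads may not be separate from those of LINC00894. Chromosomes 22 and X were also picked after their values were seen.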
